A study of Homo sapiens with 6 samples.

Results

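The regulators and marker genes of the epithelial-mesenchymal transition (EMT) were followed by RNA-Seq in LNCaP prostate cancer cells and in their enzalutamide-resistant derivative, LNCaP-enzaR. The genes were taken by symbol from the table of gene counts: the mesenchymal markers FN1 and VIM, the EMT transcription factors TWIST1, SNAI1, SNAI2, ZEB1 and ZEB2, and the epithelial factors OVOL1, ESRP1 and ESRP2. All 10 were found among the 35554 genes listed. LNCaP is an established androgen-dependent line grown from a metastatic human prostate carcinoma, and enzalutamide is an inhibitor of the androgen receptor. According to the study's methods, resistance in LNCaP-enzaR was selected in culture under enzalutamide, and the line is kept on the drug at reduced dose. Each group held 3 samples, labelled biological replicates and grown in separate T25 flasks to below confluence. Each line is 1 culture history, so p-values measure the spread between flasks and not between independent derivations of resistance, and whether enzalutamide was in the medium at harvest is not stated in the sources used here.

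In EMT, epithelial cells give up their junctions and apical-basal polarity and take on a motile, spindle-shaped form. Transcription factors of the SNAI, ZEB and TWIST families drive the change, in part by binding E-box motifs in the promoters of epithelial genes and repressing them, while OVOL proteins repress ZEB genes and hold cells in the epithelial state. ESRP1 and ESRP2 are RNA-binding proteins that maintain the epithelial pattern of splicing. The miR-200 family of microRNAs acts against ZEB1 and ZEB2 in a reciprocal loop. In prostate cancer, the program has been studied in relation to invasion and to loss of response to androgen blockade.

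In LNCaP-enzaR, the members did not all move in 1 direction. FN1, SNAI2 and TWIST1 fell, VIM and OVOL1 rose, and SNAI1, ESRP1 and ESRP2 did not pass the threshold, set at 1.5-fold and an adjusted p of 0.05 or less in edgeR's quasi-likelihood test. ZEB1 and ZEB2 held at most 16 counts in any library and did not pass the filter on low counts. Thus 5 of the 8 tested members were past the threshold, beside 42.7% of all 19711 genes tested. There were 2 higher members, beside 23.3% of all tested genes, and 3 lower members, beside 19.5%. Groups did not overlap for 6 of the 8, beside 70.6% of all tested genes, so most genes tested, EMT genes or not, stood apart between the lines. The median log2 fold change was -0.14 over the tested members and 0.013 over all tested genes.

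**Figure D1:**
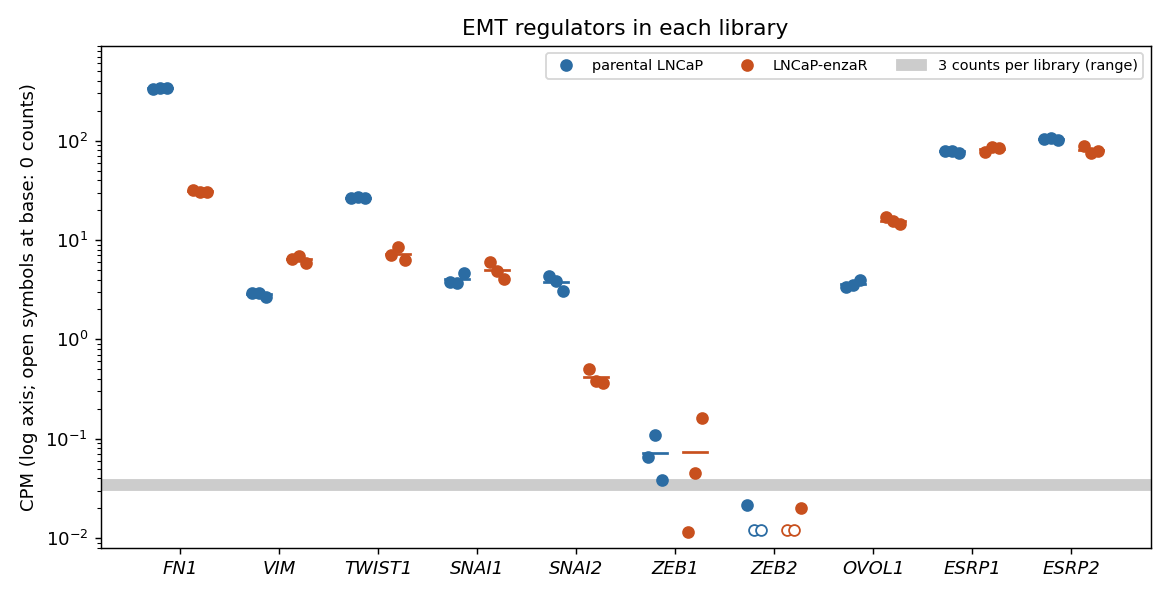
CPM (counts scaled to 1000000 per TMM-scaled library, log axis) of the 10 EMT regulators in each of the 3 parental LNCaP and 3 LNCaP-enzaR libraries; horizontal ticks are group means, the grey band is the CPM of 3 counts (0.0302 to 0.0382 across the libraries), and open symbols at the base are libraries with 0 counts. FN1, SNAI2 and TWIST1 lie lower and VIM and OVOL1 higher in every LNCaP-enzaR library, while ZEB1 and ZEB2 lie between 0 and 0.161 CPM in both lines.

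FN1 encodes fibronectin, an extracellular matrix glycoprotein that is abundant in mesenchymal cells. The gene lies at chr2:215360440-215436073 (GRCh38) and shares no exonic base with another annotated gene. It measured 329, 339 and 343 CPM in parental replicates 1 to 3 and 32.2, 30.2 and 30.7 CPM in LNCaP-enzaR replicates 1 to 3. The groups lay far apart, and the spread within each was small. FN1 fell by 3.44 on the log2 scale (SE 0.058, edgeR adjusted p = 7.20e-15), which was a 10.9-fold difference and the largest among the tested members.

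The FN1 promoter is shown because FN1 moved most. It is the RefSeq window from 250 bases before to 50 bases after the start site on the minus strand, chr2:215436019-215436318 (GRCh38.p14), printed 5′ to 3′. The capitals mark TGACGTCA, the palindromic cyclic AMP response element, whose first base lies 183 bases before the start site.
FN1 promoter: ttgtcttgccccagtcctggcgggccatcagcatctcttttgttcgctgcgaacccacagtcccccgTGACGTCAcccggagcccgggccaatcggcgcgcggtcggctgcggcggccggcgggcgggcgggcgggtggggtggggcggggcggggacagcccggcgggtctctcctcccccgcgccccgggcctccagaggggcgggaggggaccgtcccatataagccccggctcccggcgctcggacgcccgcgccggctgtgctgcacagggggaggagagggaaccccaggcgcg
This element was found in 1.85% of the 35116 promoter windows in the RefSeq table. The window holds no E-box of the form CAGGTG or its reverse complement CACCTG. A match describes the letters of the window only.

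VIM encodes vimentin, the intermediate filament protein used as a mesenchymal marker (chr10:17228241-17237593). Its level was low in the parental line, at 2.92, 2.95 and 2.70 CPM, and stood at 6.47, 6.93 and 5.85 CPM in LNCaP-enzaR. All 3 resistant libraries were above all parental ones. VIM rose by 1.17 on the log2 scale (SE 0.11, adjusted p = 4.88e-07), a 2.24-fold difference. Fibronectin and vimentin, both read as mesenchymal markers, therefore moved in opposite directions. Exons of antisense genes cover 24.6% of the exonic bases of VIM, of which VIM-AS1 takes 12.7%. VIM-AS1 held 9 to 10 counts in the parental libraries and 9, 23 and 44 in LNCaP-enzaR, against 212 to 270 and 558 to 612 for VIM, so its counts were small beside those of VIM. The other antisense gene, ENSG00000234961, covers 12% and was not analysed here.

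TWIST1 encodes a basic helix-loop-helix factor that represses epithelial genes and promotes motility (chr7:19020991-19117636). It was found at 26.5, 27.4 and 26.5 CPM in the parental libraries and at 7.09, 8.45 and 6.34 CPM in LNCaP-enzaR, with no overlap. TWIST1 fell by 1.88 on the log2 scale (SE 0.096, adjusted p = 4.38e-10), a 3.68-fold difference.

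SNAI1 and SNAI2 encode Snail and Slug, related zinc finger repressors that bind the same E-box. SNAI2 (chr8:48917598-48921740) measured 4.33, 3.86 and 3.09 CPM in the parental line and 0.498, 0.385 and 0.363 CPM in LNCaP-enzaR. In raw counts this was 401, 351 and 243 against 43, 34 and 36, so the lower group remained well above the floor of 3 counts. SNAI2 fell by 3.18 on the log2 scale (SE 0.20, adjusted p = 4.31e-09), a 9.08-fold difference.

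SNAI1 (chr20:49982980-49988886) showed no such drop. Its values were 3.74, 3.68 and 4.62 CPM in the parental line and 5.96, 4.89 and 4.09 CPM in LNCaP-enzaR, and the groups overlapped. The log2 fold change was 0.31 (95% interval -0.0038 to 0.63, adjusted p = 0.0759). The interval reaches from no difference to a little above the fold limit, so a change in SNAI1 was not shown, and equality was not shown either.

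The relation between the paired genes was followed within each library, where scaling cancels out. Counts were divided by exonic length, and the log2 ratio of SNAI1 to SNAI2 was 0.73, 0.88 and 1.52 in parental replicates 1 to 3 and 4.52, 4.61 and 4.44 in LNCaP-enzaR. SNAI1 transcripts thus exceeded those of SNAI2 by 2.06-fold on average in the parental line and by 23.0-fold in the resistant line. The mean log2 ratio was 1.04 ± 0.42 (SD, n = 3) and 4.53 ± 0.086 (SD, n = 3), and the difference of 3.48 gave an exact 2-sided permutation p = 0.10, the smallest that 3 against 3 libraries allow.

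ZEB1 and ZEB2 encode zinc finger and homeobox repressors that are leading inducers of EMT. ZEB1 (chr10:31318495-31529814) held 6, 10 and 3 counts in the parental libraries and 1, 4 and 16 counts in LNCaP-enzaR. ZEB2 (chr2:144364364-144521057) held 2, 0 and 0 counts and then 0, 0 and 2. With 77759122 to 98616465 counts per library, these are the lowest of the members by far, and no difference between the lines was detectable at this depth. No fold change is given for ZEB2, since both groups were at or under 3 counts. ZEB1-AS1, an antisense gene that shares 4.58% of the exonic bases of ZEB1, held 373 to 477 and 429 to 564 counts. If counting was done without regard to strand, reads from the pair cannot be told apart over that stretch. The floor of 3 counts covers counting error only, because amplified reads are not independent molecules.

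OVOL1 encodes a zinc finger repressor that sustains epithelial identity (chr11:65787063-65797214). It stood at 3.37, 3.56 and 3.93 CPM in the parental line and at 17.1, 15.4 and 14.7 CPM in LNCaP-enzaR, without overlap. OVOL1 rose by 2.12 on the log2 scale (SE 0.099, adjusted p = 1.60e-10), a 4.35-fold difference. An antisense gene, ENSG00000255404, covers 27.3% of the exonic bases of OVOL1 and was not analysed here, so the part of the OVOL1 counts that may come from the other strand was not tested. Its paralog OVOL2 went the other way, from 13.8 ± 0.35 to 9.05 ± 0.77 CPM (SD, n = 3 each), and fell by 0.61 on the log2 scale (SE 0.086, adjusted p = 1.97e-05), just past the fold limit.

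ESRP1 and ESRP2, the epithelial splicing regulators, were well expressed in both lines. ESRP1 (chr8:94641074-94707466) measured 79.7, 78.7 and 76.0 CPM in the parental line and 77.4, 86.9 and 84.4 CPM in LNCaP-enzaR, with overlap. Its log2 fold change was 0.085 (95% interval -0.044 to 0.21, adjusted p = 0.230), and both bounds lie inside 1.5-fold. ESRP2 (chr16:68229033-68238102) measured 104, 107 and 102 CPM and then 88.1, 75.5 and 78.0 CPM. Every resistant library was below every parental one, and the log2 difference of -0.37 (SE 0.065, adjusted p = 1.46e-04) was beyond the spread between flasks but, at 1.29-fold, under the fold limit. Of the exonic bases of ESRP2, 4.37% lie in NFATC3 on the opposite strand, which held 2824 to 3108 and 2154 to 2723 counts.

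Within libraries, the log2 ratio of ESRP1 to ESRP2 per exonic length was -0.29, -0.35 and -0.33 in the parental line and -0.098, 0.29 and 0.20 in LNCaP-enzaR. ESRP2 was the higher of the pair in all 3 parental libraries and ESRP1 in 2 of the 3 resistant ones. The difference of the means was 0.46 (exact permutation p = 0.10, again the smallest possible). The ratio of ZEB1 to ZEB2 was not computed, because at least 1 of the genes was at 3 counts or fewer in every library.

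**Figure D2:**
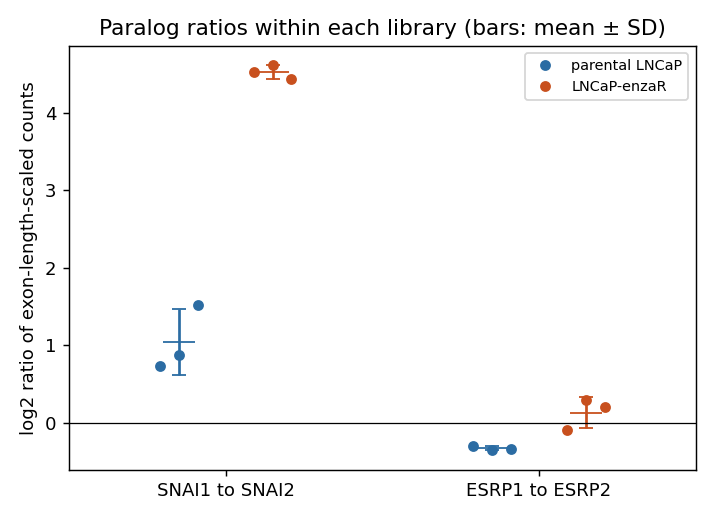
Log2 ratio of exon-length-scaled counts for SNAI1 to SNAI2 and ESRP1 to ESRP2 in each library; bars are mean ± SD over 3 libraries per line. The SNAI ratio rises from a mean of 1.04 to 4.53 without overlap, and the ESRP ratio from -0.33 to 0.13.

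**Figure D3:**
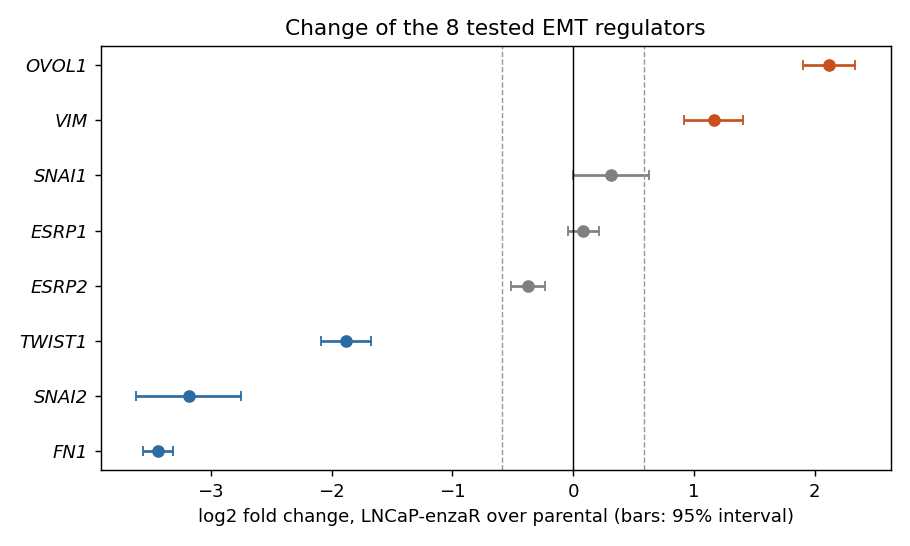
Log2 fold change of the 8 tested members, LNCaP-enzaR over parental, with 95% intervals from the edgeR fit; dashed lines mark 1.5-fold and grey marks members not past the threshold. FN1, SNAI2 and TWIST1 lie below the lower line, and VIM and OVOL1 above the upper one.

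Levels of different genes were compared after division by exonic length, as RPKM (CPM per 1000 exonic bases). In the parental line the order of the mean RPKM levels was ESRP2 (20.1), FN1 (19.6), ESRP1 (16.0), TWIST1 (13.4), SNAI1 (2.35), SNAI2 (1.15), OVOL1 (0.952) and VIM (0.551), with ZEB1 (0.0082) and ZEB2 (0.00028) last. Neighbours overlapped between libraries only for ESRP2 with FN1 and for SNAI2 with OVOL1. In LNCaP-enzaR the order was ESRP1 (17.0), ESRP2 (15.5), OVOL1 (4.14), TWIST1 (3.65), SNAI1 (2.92), FN1 (1.80), VIM (1.24), SNAI2 (0.127), ZEB1 (0.0084) and ZEB2 (0.00026). Here ESRP1 overlapped ESRP2, OVOL1 overlapped TWIST1, and TWIST1 overlapped SNAI1. The ESRP genes thus held the first rank in both lines, FN1 dropped from the second to the sixth, and OVOL1 climbed from the seventh to the third. Even after its rise, VIM remained below FN1 on this scale. The lengths are unions of all annotated exons, so genes with many rare exons, such as FN1 and ZEB2, are scaled down more than their main transcripts would be.

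The wider circuit was read from lists of known EMT genes. The counts of each list stand beside 23.3% higher and 19.5% lower among all 19711 tested genes. Of 13 other EMT transcription factors, 9 were tested, of which 2 were higher and 5 lower past the threshold, with a median log2 fold change of -1.11. SOX4, an SRY-box factor linked to TGF-beta-induced EMT, fell from 186 to 46.1 CPM (log2 fold change -2.01). TCF3, which encodes the E2A partners of TWIST1, fell from 133 to 61.5 CPM (-1.11). FOXC1, a forkhead factor, went against these, with 0.120 CPM in the parental line and 4.85 CPM in LNCaP-enzaR (5.30, adjusted p = 7.87e-11). All 3 of its resistant libraries, at 5.19, 4.34 and 5.02 CPM, were above the parental range of 0.0764 to 0.176.

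Of 12 epithelial transcription factors, 11 were tested, of which 3 were higher and 6 lower, with a median of -0.61. EHF, an epithelial ETS factor, fell from 605 to 169 CPM (log2 fold change -1.84). ELF3, another epithelial ETS factor, rose from 15.1 to 29.9 CPM (0.99). GRHL2, which activates junction genes, measured 199 and 170 CPM and stayed under the fold limit (-0.22, adjusted p = 0.00148). Both kinds of factor were thus found among the lower genes, 5 of the 9 tested EMT factors and 6 of the 11 tested epithelial ones, beside 19.5% of all tested genes.

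All 34 junction, polarity and keratin genes were tested. Of these, 8 were higher, 5 lower and 21 not past the threshold, with a median of 0.085. Among all tested genes 23.3% were higher and 19.5% lower, so the count of higher junction genes was near the general share. CDH1, which encodes E-cadherin and is the textbook target of the SNAI and ZEB repressors, measured 400, 406 and 407 CPM in the parental line and 525, 558 and 537 CPM in LNCaP-enzaR. The groups did not overlap, and the log2 difference of 0.42 (SE 0.050, adjusted p = 3.93e-06) was 1.34-fold and under the limit. EPCAM, an epithelial adhesion molecule, behaved alike at 94.8 and 126 CPM (0.41). Past the threshold, KRT8 rose from 397 to 886 CPM (1.16), LLGL2, a polarity gene, from 29.4 to 88.1 CPM (1.58), and CLDN4, a claudin, from 149 to 228 CPM (0.61). CDS1 rose from 58.4 to 105 CPM (0.85) and AP1M2, which encodes an epithelial sorting adaptor, from 159 to 255 CPM (0.68). TJP1, which encodes the tight junction scaffold ZO-1, fell from 247 to 86.0 CPM (-1.52), and MAL2, an apical transport gene, from 201 to 122 CPM (-0.73).

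Promoter windows were given for 19 of the 34 junction genes, and CDH1 and EPCAM were not among these. Of the 19 genes, 13 (68.4%) hold the E-box CAGGTG or CACCTG, beside 24.1% of all 27305 genes with a window. Every such hexamer is also a match to the looser form CANNTG, which was present in 84.2% of the 19 genes and in 73.1% of all. Of the 13 with it, 3 were higher, 2 lower and 8 not past the threshold, and of the 6 without it, 3 were higher, 0 lower and 3 not past it. At an unadjusted p under 0.05 in edgeR, 6 genes with it were higher and 4 lower, and without it 3 were higher and 0 lower. The share of all tested genes at that cut was not computed. At an adjusted p of 0.05 or less without a fold limit it was 13074 of 19711. Windows of AP1M2, which rose, and TJP1, which fell, are shown because the same E-box occurs in both. Both are RefSeq windows on the minus strand of GRCh38.p14, AP1M2 at chr19:10587263-10587562 and TJP1 at chr15:29969000-29969299, and the capitals mark CAGGTG or CACCTG.
AP1M2 promoter: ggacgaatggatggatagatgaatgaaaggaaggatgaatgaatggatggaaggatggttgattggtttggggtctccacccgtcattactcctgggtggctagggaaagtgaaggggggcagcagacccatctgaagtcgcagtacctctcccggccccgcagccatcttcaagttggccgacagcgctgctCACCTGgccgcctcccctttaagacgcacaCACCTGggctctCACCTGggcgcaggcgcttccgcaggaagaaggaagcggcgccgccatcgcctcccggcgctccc
TJP1 promoter: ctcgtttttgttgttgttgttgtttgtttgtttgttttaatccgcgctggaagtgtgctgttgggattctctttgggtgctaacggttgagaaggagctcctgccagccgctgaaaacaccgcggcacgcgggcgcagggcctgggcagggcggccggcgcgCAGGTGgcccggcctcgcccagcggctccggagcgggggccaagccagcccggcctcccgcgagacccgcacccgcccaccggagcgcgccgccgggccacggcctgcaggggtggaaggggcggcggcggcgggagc
AP1M2 holds 3 such motifs and this window of TJP1 holds 1. The other windows of TJP1 hold none, and which start site these cells use was not tested. Among the members, windows were given for 4, namely VIM, FN1, ZEB1 and ZEB2, and only ZEB1 holds the motif, in 2 of its windows.

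Of 32 mesenchymal effector genes, 29 were listed and 19 tested, of which 4 were higher and 8 lower, with a median of -0.54. COL5A1, a fibrillar collagen gene, fell from 18.2 to 3.17 CPM (log2 fold change -2.52) and FSTL1, a secreted glycoprotein gene, from 24.7 to 6.22 CPM (-1.99). Of the collagen VI genes, COL6A2 rose from 19.0 to 99.8 CPM (2.39) and COL6A1 from 57.4 to 137 CPM (1.26), while COL6A3 held at most 10 counts in any library and was not tested. CDH2, which encodes N-cadherin, held 0 counts in all 3 parental libraries and 0, 4 and 0 in LNCaP-enzaR. Effector genes past the threshold were found in both directions, with 4 of the 19 higher, beside 23.3% of all tested genes, and 8 lower, beside 19.5%.

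**Figure D4:**
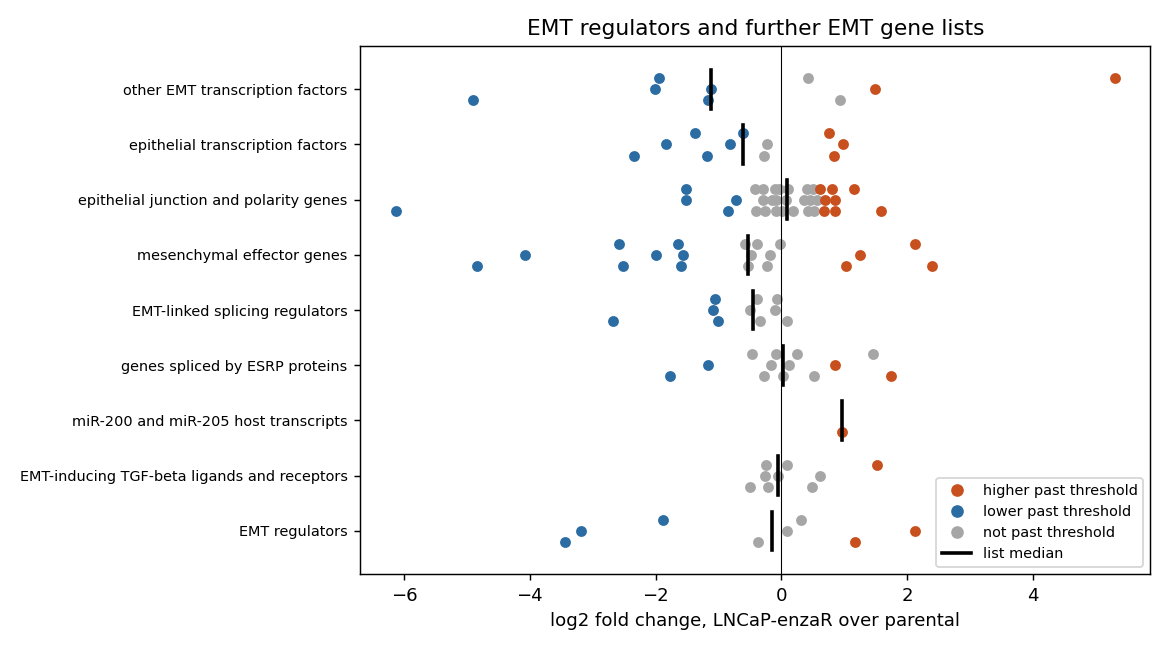
Log2 fold change (LNCaP-enzaR over parental) of each tested gene in the 8 further EMT lists and, in the last line, of the 8 tested EMT regulators; colour marks genes past the threshold, and black bars are list medians. The medians run from -1.11 for the other EMT transcription factors to 0.96 for the single miR-200 host transcript tested, and each list of more than 1 gene spans both signs.

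Of 12 splicing regulators linked to EMT, 10 were tested, of which 0 were higher and 4 lower in edgeR. The shares over all tested genes were 23.3% and 19.5%, and the list median was -0.45. At an adjusted p of 0.05 or less without a fold limit, 0 were higher and 7 lower. Past the same cut were 13074 of all 19711 tested genes, 6607 of them higher and 6467 lower. DESeq2 called 1 higher and 4 lower, beside 4903 and 3888 of 27281 genes. PTBP1, a repressor of alternative exons, fell from 630 to 297 CPM (log2 fold change -1.09), HNRNPM from 546 to 264 CPM (-1.05) and SRSF1, an SR protein gene, from 184 to 91.6 CPM. RBM47, an epithelial RNA-binding protein gene, measured 76.8 and 82.0 CPM (0.095, adjusted p = 0.144), and QKI, which acts in mesenchymal splicing, 72.5 and 55.4 CPM (-0.39, adjusted p = 3.22e-04, under the fold limit). Of 13 genes known to be spliced by the ESRP proteins, 2 were higher and 2 lower, with a median of 0.024. KIF21A fell from 87.0 to 38.6 CPM (-1.17) and OSBPL3 from 12.3 to 3.58 CPM (-1.77). FGFR2 (1.35 and 1.37 CPM), CD44 (0.0797 and 0.224 CPM) and CTNND1 (28.4 and 25.3 CPM) were not past the threshold. Gene counts do not show which exons were used.

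Of 8 host and precursor transcripts of miR-200 and miR-205, 5 were listed and 1 passed the filter. MIR200CHG, the host transcript of miR-200c and miR-141, measured 0.789, 0.901 and 0.967 CPM in the parental line and 1.94, 1.53 and 1.71 CPM in LNCaP-enzaR. It rose by 0.96 on the log2 scale (SE 0.19, adjusted p = 5.15e-04). The mature microRNAs of this host are shown as RefSeq gives them, with the seed (bases 2 to 8) in capitals, because they target ZEB1 and ZEB2, the members with the fewest counts in both lines.
hsa-miR-200c-3p: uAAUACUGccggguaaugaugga
hsa-miR-141-3p: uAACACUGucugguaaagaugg
The seeds of the pair are not identical. Libraries of polyadenylated RNA do not measure mature microRNAs.

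Of 10 TGF-beta ligands, receptors and Smad genes, 9 were tested, of which 1 was higher and 0 lower in both edgeR and DESeq2, with a median of -0.058. At an adjusted p of 0.05 or less without a fold limit, 2 were higher and 3 lower, beside 13074 of all 19711 tested genes. SMAD3, a transcriptional mediator of the pathway, rose from 11.2 to 32.2 CPM (log2 fold change 1.52, adjusted p = 9.48e-11).

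Cell identity was read from marker lists, whose counts again stand beside 23.3% higher and 19.5% lower among all tested genes. All 11 luminal prostate markers were detected, with summed levels of 5985 to 6091 CPM in the parental libraries and 5528 to 5619 CPM in LNCaP-enzaR, and 3 were higher and 5 lower. Fibroblast and stromal markers (7 of 10 listed) summed to 14.7 to 17.9 and 8.24 to 9.03 CPM, of which COL1A1, also among the mesenchymal effectors, made up most in the parental line. There were 2 higher, 1 lower and 1 not past the threshold among the 4 tested. COL1A1 fell, while LUM rose from 0.425 to 1.44 CPM (log2 fold change 1.78) and PDGFRB from 0.641 to 1.73 CPM (1.43), and the part of these markers in the FN1 and VIM values was not tested. COL3A1, not past the threshold, measured 1.37 and 1.05 CPM. PDGFRA and DCN held at most 1 count in any parental library and at most 7 and 20 counts in LNCaP-enzaR. THY1 held at most 2 counts in any library. Endothelial markers (6 of 6 listed) summed to 6.68 to 6.94 and 4.25 to 4.67 CPM, most of it VWF, with PECAM1 at 4 counts or fewer in each library. Leukocyte markers (6 of 6 listed) summed to at most 0.281 CPM. Basal markers (6 of 6 listed) summed to 12.6 to 14.5 and 13.1 to 17.0 CPM, most of it DST, with KRT5 at 0 to 2 counts and TP63 at 0 to 1. In bulk RNA, fewer cells with a transcript and less transcript per cell cannot be told apart. Mitochondrial genes took 6.72% to 7.06% of counts in the parental libraries and 14.7% to 15.5% in LNCaP-enzaR, and without these genes the same number of members, 5, was past the threshold.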

How the data were processed

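RNA was taken from 3 flasks each of parental LNCaP and LNCaP-enzaR, and polyadenylated RNA libraries were sequenced as paired ends. Per the study's methods, the authors trimmed adapters with Cutadapt, mapped them with STAR (genome GRCh38, GENCODE annotation), and used featureCounts to count per gene. The deposited values are raw counts, not normalized. The strand setting is not given in the sources used here, so counts of antisense and overlapping genes are uncertain.

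Genes passing filterByExpr were fitted in edgeR 4.0.16 (R 4.3.3): TMM scaling, a robust quasi-likelihood F-test without covariates, and Benjamini-Hochberg adjustment over all 19711 genes. Intervals use the t distribution with the fitted degrees of freedom. The study's limits (adjusted p of at most 0.05, fold of at least 1.5) were applied. DESeq2 1.42.0 was an alternative, as were other scalings, filters and thresholds, mitochondrial genes left out, a replicate block, and each library left out in turn. Libraries held 77759122 to 98616465 counts. Coordinates are those of the deposited table, and exonic lengths and overlaps come from GENCODE v44, where all 10 members had the same coordinates. Promoter and microRNA sequences are RefSeq's. A promoter window was given for 4 of the 10 members.

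Members and lists were chosen with earlier results of these data known. Besides the members, CDH1, EPCAM, CDH2, OVOL2, GRHL2, RBM47, QKI, FGFR2, CD44, CTNND1 and MIR200CHG were named by rule, as were, in each list, the 3 genes past the threshold with the smallest p (mean of at least 1 CPM in either line) and all past it with 100 CPM or more in either line. Some genes that the rule names are not reported here. Other marker genes were named after their values were seen. Replicate numbers did not pair the samples (correlations of same-numbered deviations -0.21, 0.0085 and -0.12). The edgeR step was tested on simulated data of 19241 genes, where it recovered 99% of 200 changed genes and called 4 unchanged ones. All changed genes there had a mean of at least 1 CPM and changed by more than the 1.5-fold limit. They were a far smaller share than the 42.7% of genes called in the data. Recovery at small folds or under such wide change was therefore not tested.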

Additional observations from a re-analysis of the deposited data

How the results depend on the processing

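Of 305 alternative values, 294 were held to be the same and 11 moved. A fold change was the same if it kept its direction and side of the threshold, and a count if it stayed within 1.5 times. A paralog ratio was the same if it shifted by less than the SD between libraries. The E-box share was the same if it lay within the 95% interval of the main value, which is wide for 19 genes. The looser form CANNTG includes both hexamers, so its share could not be lower than the main one. This label leaves out the share over all genes with a window, which was 24.1% for the hexamers and 73.1% for CANNTG. Each tested member kept its call under all 15 alternatives to the fit. LNCaP-enzaR replicate 1 stood apart from replicates 2 and 3 (chi-square per degree of freedom 35.6 and 28.2), which were closer to each other (6.97). Without it, the edgeR adjusted p was lower for FN1 (2.21e-29) and OVOL1 (9.91e-17) and higher for SNAI1 (0.287). Log2 fold changes ran from 1.11 to 1.27 for VIM, -3.48 to -3.34 for FN1, -3.32 to -3.07 for SNAI2, -1.997 to -1.78 for TWIST1, 2.06 to 2.22 for OVOL1, 0.17 to 0.44 for SNAI1, 0.052 to 0.19 for ESRP1 and -0.43 to -0.27 for ESRP2. SNAI1 stayed under the fold limit, but its adjusted p crossed 0.05 without parental LNCaP replicate 3 (0.0358), without LNCaP-enzaR replicate 3 (0.0183), with upper-quartile scaling (0.0244) and with no filter (0.0421). That of ESRP1 did so without LNCaP-enzaR replicate 1 (0.00651) and with upper-quartile scaling (0.0134), which shifted the median of all genes by 0.10. Without a filter, the adjusted p was 0.981 for ZEB1 and 0.988 for ZEB2.

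With no minimum fold, 13074 genes were past the threshold, 6 members (ESRP2 added), 26 junction genes, 7 splicing regulators, 8 genes spliced by ESRP proteins and 5 TGF-beta genes. At a fold of at least 2 there were 5561 genes, 4 epithelial transcription factors, 5 junction genes and 0 miR-200 hosts. With protein-coding genes only, the miR-200 hosts also gave 0, since MIR200CHG is not among them. Upper-quartile scaling gave 2 TGF-beta genes, and the cause was not tested. DESeq2 called 8791 genes, 8025 of them shared with edgeR. The replicate block gave 8212 genes and 5 members, and 8174 genes were shared. With each library left out in turn, the difference in log2 ratio ran from 3.32 to 3.72 for the SNAI pair and from 0.38 to 0.57 for the ESRP pair. Depth limits ZEB1, ZEB2 and CDH2, which held at most 16, 2 and 4 counts in any library.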
